A study of Mus musculus with 10 samples.

Results

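The genes described here are 39 genes of the dermal extracellular matrix, chosen by symbol: fibrillar, basement membrane, microfibrillar and fibril-associated collagens, proteoglycans, elastic fibre genes, matrix glycoproteins, and genes for the processing and turnover of collagen. They were measured in mouse skin RNA, where 34 of the 39 were among the 9779 genes present in both deposited gene tables, 2 (Mfap5 and Pcolce) were in the benzamil table alone, and Col4a2, Col15a1 and Loxl1 were not analysed here. Of the 34, 22 had enough reads for a test (at least 34.9 CPM, a read count scaled for depth, in at least 2 libraries) among 5245 genes tested in all. Of these 22, 6 passed that filter only with the help of the untreated libraries. In 4 of them, Col5a1, Col6a3, Lox and Megf6, both untreated libraries and no treated one passed the limit, so these had to stand higher in untreated skin. Col4a1 and Fbn1 passed through 1 treated and 1 untreated library.

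All mice were of the strain c57/Bl6 and 6 to 8 weeks old. The 3 groups were imiquimod with DMSO (4 libraries), imiquimod with benzamil (4 libraries) and untreated (2 libraries), and application to the skin lasted 6 days. Imiquimod is a Toll-like receptor agonist whose cream causes psoriasis-like inflammation in mouse skin, benzamil is an amiloride analogue that blocks epithelial sodium channels, and DMSO is the solvent. The first 2 groups both received imiquimod, and no group received imiquimod without a solvent or benzamil without imiquimod. By the sample labels all RNA came from ear skin, but the design text of the series speaks of back and ears under imiquimod and of the back for untreated controls, so treatment and body site cannot be told apart against the untreated group. Nothing says that the libraries of a group came from separate animals, so p-values measure only the spread between these libraries, which may be technical.

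Dermal matrix is made mostly by fibroblasts. Collagen chains are hydroxylated and folded in the endoplasmic reticulum, secreted as procollagen, trimmed, assembled into fibrils whose width is set partly by minor collagens and small proteoglycans, and cross-linked by lysyl oxidase. Metalloproteinases cut the fibrils, and tissue inhibitors of metalloproteinases (TIMPs) restrain those enzymes.

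The libraries were 3' mRNA libraries, in which a fragment near the end of each transcript is sequenced, and they were shallow. They held 260207 to 938322 reads with DMSO, 139204 to 377240 with benzamil, and 74713 and 71230 in the untreated libraries. Levels are given as CPM, reads per 1000000 reads of the joined genes after scaling by trimmed mean of M values (TMM). On that scale 1 read was worth 1.04 to 3.68 CPM with DMSO, 3.03 to 7.94 with benzamil, and 13.5 and 14.8 in the untreated libraries, so 3 untreated reads made 40.4 and 44.5 CPM. The untreated libraries stood apart from each other as well, at -42.0 and 61.8 on the second principal component, which held 22.29% of the variance. Levels of different genes are not compared.

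The tissue label was checked against marker genes. All 8 basal keratinocyte markers were present, with summed levels of 11791 to 19791 CPM over the 10 libraries. Of 18 fibroblast markers 13 were in both tables, summing to 429 to 585 CPM with DMSO, 494 to 810 with benzamil, and 1104 and 1009 in the untreated libraries, where Dpp4 had no read. None of 9 endothelial markers was in both tables, and of 13 cartilage markers 5 were.

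Skin treated with imiquimod and DMSO had lower levels of many matrix genes, in CPM, than untreated skin. In edgeR's quasi-likelihood test, with p-values adjusted by Benjamini and Hochberg's method over 5245 genes, 15 of the 22 tested matrix genes fell (8.45% of all tested genes did), among them all 5 fibrillar collagens, Sparc and Eln, and 0 rose (9.93% of all tested genes did). Of the 15, 5 had passed the filter only with the untreated libraries and 10 had passed through the treated ones. The list was chosen with earlier results of these data known. Its counts beside shares of all tested genes, here and below, are therefore descriptions only. At an unadjusted p under 0.05, 1 rose (Postn, encoding a matricellular protein of fibroblasts) and 17 fell. Over all tested genes 1746 of 5245 passed that limit, both directions together. DESeq2 called 0 higher and 15 lower, beside 329 and 487 of 5244 genes in all. By limma 2 were higher, Col6a1 and Fbln1, of which the untreated libraries held 0 reads. Over all genes limma called 2369 of 9820 higher. In bulk RNA, fewer cells of a type and less RNA per cell cannot be told apart.

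The fibrillar collagens form the rope-like fibres that give dermis its tensile strength. Col1a1, on chr11:94936224-94953042 of mm10, encodes the more abundant chain of type I collagen. It stood at 9408 and 2788 CPM in the untreated libraries, at 75.8, 124, 283 and 169 CPM with DMSO, and at 194, 290, 120 and 492 CPM with benzamil. The untreated libraries were above every treated library, and the treated groups overlapped. The change from untreated to DMSO was -5.29 ± 0.44 on the log2 scale (SE; adjusted p = 4.018e-09), from a mean of 6098 ± 4681 (SD, n = 2) to 163 ± 88.7 CPM (n = 4). Without untreated library 1 it was -4.08 (adjusted p = 1.440e-07).

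Col1a2, on chr6:4504814-4541544, encodes the partner chain of Col1a1 in the same molecule. Its levels were 2409 and 1973 CPM untreated, 55.1, 97.2, 158 and 178 CPM with DMSO, and 200.2, 230.4, 120 and 254 CPM with benzamil. It fell by 4.24 ± 0.32 with DMSO (log2; adjusted p = 7.842e-10), and no treated library reached either untreated one. Col3a1, on chr1:45311538-45349706, encodes type III collagen, which mixes with type I in skin fibrils. It stood at 2005 and 964 CPM untreated, 80.0, 170.2, 162 and 164 CPM with DMSO, and 143, 227, 93.4 and 302 CPM with benzamil, a change of -3.42 ± 0.33 with DMSO (adjusted p = 5.755e-08). The lowest untreated library exceeded the highest treated one, and without untreated library 1 the change was -2.70 (adjusted p = 9.789e-05).

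Type V collagen, a minor collagen on which type I fibrils nucleate, had fewer reads. Col5a2 stood at 269 and 178 CPM untreated, 15.6, 8.10, 33.1 and 33.3 CPM with DMSO, and 36.4, 36.7, 13.3 and 55.6 CPM with benzamil. Its change with DMSO was -3.43 ± 0.48 (adjusted p = 2.115e-05), again with no overlap. Col5a1 passed the filter only with the untreated libraries, at 188 and 44.5 CPM against 4.16 to 22.2 with DMSO and 6.68 to 15.9 with benzamil, a change of -3.72 ± 0.71 with DMSO (adjusted p = 7.576e-04) that was -2.21 (0.240) without untreated library 1 and -4.43 (2.160e-04) without DMSO library 4. Together the 5 fibrillar genes summed to 14281 and 5947 CPM untreated, 231 to 644 CPM with DMSO and 360 to 1120 CPM with benzamil.

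**Figure D1:**
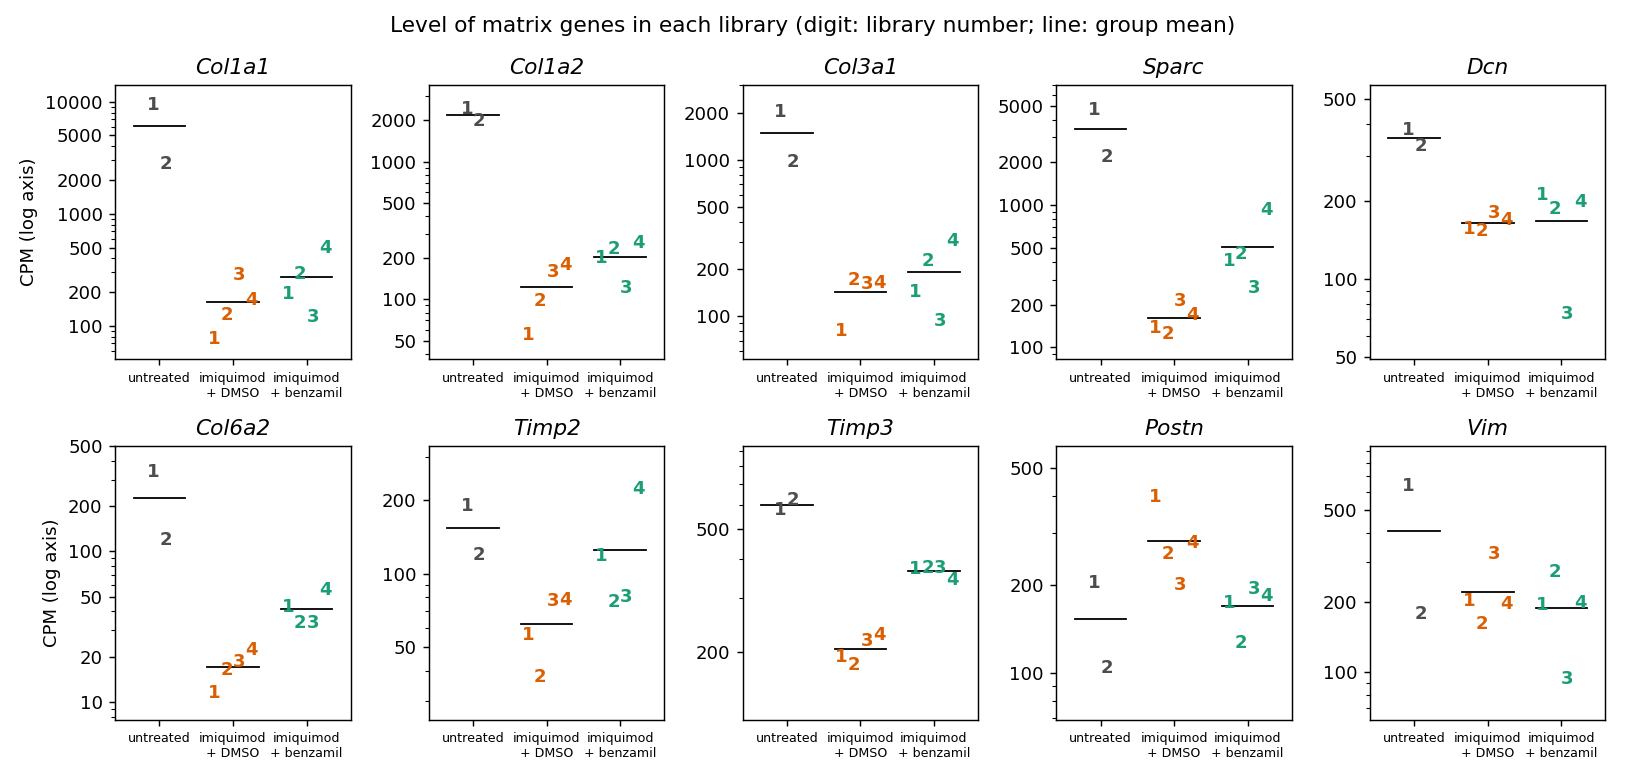
Levels of 10 matrix genes in each library, in CPM on a log axis, for untreated skin, imiquimod with DMSO and imiquimod with benzamil; digits are library numbers and lines are group means. Col1a1, Col1a2, Col3a1 and Sparc lie higher in both untreated libraries than in any treated library, Timp3 separates all 3 groups (181 to 228, 341 to 374, and 579 and 623 CPM), and Postn is the gene whose DMSO libraries lie above the benzamil ones.

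Type VI collagen forms beaded microfilaments around cells and fibres, and type IV collagen the sheet of basement membranes. Col6a2, on chr10:76595762-76623630, stood at 336 and 119 CPM untreated, 11.4, 16.2, 18.4 and 22.2 CPM with DMSO, and 42.5, 33.4, 33.4 and 55.6 CPM with benzamil. The 3 groups did not overlap, and the change from untreated to DMSO was -3.84 ± 0.46 (adjusted p = 2.338e-06), or -2.79 (0.0167) without untreated library 1. Col6a3, which passed the filter only with the untreated libraries, held 215 and 148 CPM there, 8.10 to 24.98 with DMSO and 6.67 to 31.8 with benzamil (-3.36 ± 0.50 with DMSO; adjusted p = 4.390e-05). Col6a1, the third chain, went untested: it had 0 untreated reads, 14, 2, 2 and 4 reads with DMSO and 3, 2, 1 and 2 with benzamil, and 3 reads of an untreated library would already exceed those levels. Col4a1, which shares a divergent promoter with Col4a2, fell by 2.55 ± 0.90 with DMSO (adjusted p = 0.047), but its groups overlapped, with 94.2 and 14.8 CPM untreated against 5.19 to 22.1. Its call was lost without untreated library 1 (-0.56, adjusted p = 0.8593), without DMSO library 1, 2 or 4 or benzamil library 2 or 3 (adjusted p = 0.0503 to 0.0986), by total counts alone (0.0588), with no filter (0.0585) and by limma (0.157).

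Promoter sequence is shown for a fibrillar, a minor fibrillar and a microfibrillar collagen that were lower in both treated groups, and for Postn, which was not. The windows are the 250 bases before the transcription start in RefSeq (build GRCm38.p6), 5' to 3' on the coding strand, and hold no exon of GENCODE M21. Of the 39 genes 26 were matched to 29 such windows. Capitals mark 3 motifs on either strand: the letters GGGCGG of a GC box, the letters TATAAA of a TATA box, and the letters CCAAT.
Col3a1 (chr1:45311288-45311537, plus strand): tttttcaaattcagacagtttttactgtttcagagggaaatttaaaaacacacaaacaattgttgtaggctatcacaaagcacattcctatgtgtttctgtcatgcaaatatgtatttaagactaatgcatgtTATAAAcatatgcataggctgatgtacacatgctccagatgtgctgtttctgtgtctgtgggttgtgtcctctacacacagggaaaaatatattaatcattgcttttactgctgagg
Col5a1 (chr2:27886175-27886424, plus strand): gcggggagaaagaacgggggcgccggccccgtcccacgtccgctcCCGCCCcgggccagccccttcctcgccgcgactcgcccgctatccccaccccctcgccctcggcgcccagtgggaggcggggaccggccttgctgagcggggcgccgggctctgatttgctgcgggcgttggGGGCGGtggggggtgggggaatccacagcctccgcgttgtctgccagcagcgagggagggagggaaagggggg
Col6a2 (chr10:76623631-76623880, minus strand): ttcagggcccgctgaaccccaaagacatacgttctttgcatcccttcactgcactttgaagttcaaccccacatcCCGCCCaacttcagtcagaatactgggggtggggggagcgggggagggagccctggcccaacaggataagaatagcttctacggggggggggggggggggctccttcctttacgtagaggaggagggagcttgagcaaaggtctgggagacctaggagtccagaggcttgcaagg
Postn (chr3:54360857-54361106, plus strand): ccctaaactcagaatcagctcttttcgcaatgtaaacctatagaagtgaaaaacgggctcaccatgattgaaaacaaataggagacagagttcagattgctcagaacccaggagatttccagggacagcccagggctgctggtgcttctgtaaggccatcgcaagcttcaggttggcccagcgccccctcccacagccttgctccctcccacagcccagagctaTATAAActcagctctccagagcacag
Col3a1 and Postn each hold 1 TATAAA match, Col5a1 holds 2 GGGCGG matches and Col6a2 holds 1, and none of the 4 windows holds CCAAT. Postn has another RefSeq start, whose window (chr3:54359017-54359266) holds none of the 3 motifs. The windows differ in base composition, from 35.2% G and C in Col3a1 to 76.4% in Col5a1. TATAAA is held by 12.4% of all 32851 RefSeq windows, GGGCGG by 32.7% and CCAAT by 33.8%, and of the 29 windows of the matrix genes 4, 16 and 7 hold them. A match describes letters, not a site.

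Small leucine-rich proteoglycans bind collagen fibrils and limit their lateral growth. Dcn (decorin), on chr10:97479609-97518143, stood at 377 and 326 CPM untreated, 157, 154, 180.3 and 169 CPM with DMSO, and 212, 187, 73.4 and 199 CPM with benzamil. Both untreated libraries were above every treated one, and Dcn fell by 1.10 ± 0.32 with DMSO (adjusted p = 0.018), a smaller step than those of the fibrillar collagens. Without untreated library 1 or 2 the adjusted p was 0.1795 or 0.0758, by total counts alone 0.0504 and with no filter on low counts 0.0707. Bgn (biglycan) had 26.9 and 59.3 CPM untreated, from 2 and 4 reads, against 10.8 to 18.4 with DMSO, a difference of -1.41 ± 0.77 that did not pass (adjusted p = 0.199). Lum, Ogn and Fmod stayed under the filter.

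Elastic fibres let skin recoil. Eln, which encodes elastin (chr5:134702593-134747323), stood at 67.3 and 371 CPM untreated, 20.8, 27.0, 40.5 and 27.8 CPM with DMSO, and 33.4, 30.05, 46.7 and 95.3 CPM with benzamil. It fell by 2.97 ± 0.53 with DMSO (adjusted p = 3.636e-04), yet the size rested on untreated library 2, without which the change was -1.20 (adjusted p = 0.3201). Lox, the lysyl oxidase that cross-links elastin and collagen, passed the filter only with the untreated libraries, at 94.2 and 44.5 CPM there against 2.70 to 13.9 with DMSO (-3.02 ± 0.77; adjusted p = 7.918e-03), a call lost without untreated library 1 (-2.28, 0.214). Fbn1, the fibrillin of microfibrils, had 80.8 and 0 CPM untreated and 17.7 to 33.1 with DMSO, and no direction can be read from it.

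Among the glycoproteins, Sparc encodes osteonectin, a collagen-binding protein that takes part in fibril assembly. Sparc, on chr11:55394500-55423183, stood at 4684 and 2195 CPM untreated, 137, 124, 213 and 169 CPM with DMSO, and 406, 457, 260.2 and 921 CPM with benzamil. The 3 groups did not overlap, and the change with DMSO was -4.44 ± 0.34 (adjusted p = 1.257e-09), or -3.70 (7.904e-08) without untreated library 1. Fn1, fibronectin, stood at 242 and 119 CPM untreated and 29.7 to 73.6 with DMSO, and fell by 2.20 ± 0.47 (adjusted p = 2.038e-03), but without untreated library 1 the change was -1.497 (adjusted p = 0.1687). Thbs1, which encodes thrombospondin, had 215 and 163 CPM untreated, 87.3 to 151 with DMSO and 71.5 to 157 with benzamil, and did not pass (-0.75 ± 0.37 with DMSO; adjusted p = 0.159).

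Postn (periostin, chr3:54361109-54391037) had the opposite sign. It stood at 202 and 104 CPM untreated, 397, 254, 199 and 278 CPM with DMSO, and 173, 127, 193 and 183 CPM with benzamil. The difference between DMSO and untreated was 0.89 ± 0.38 (adjusted p = 0.097), with overlapping groups, and with no filter on low counts it passed at 1.13 (adjusted p = 0.0414).

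The TIMP genes stood between these extremes. Timp3, which encodes the inhibitor held in the matrix (chr10:86300372-86349506), had 579 and 623 CPM untreated, 193, 181, 217 and 228 CPM with DMSO, and 373, 374, 374 and 341 CPM with benzamil. The groups were separate and tight, and Timp3 fell by 1.56 ± 0.24 with DMSO (adjusted p = 7.015e-05). Timp2, which also takes part in activating pro-MMP2, stood at 188 and 119 CPM untreated, 56.1, 37.8, 77.3 and 77.7 CPM with DMSO, and 118, 76.8, 80.1 and 222 CPM with benzamil, and its difference from untreated, -1.34 ± 0.48, lay at the threshold (adjusted p = 0.051). It passed under 7 alternatives, among them DESeq2 size factors (0.0497), each table on its own (0.0337), limma (0.0422), and leaving out DMSO library 4, benzamil library 2 or benzamil library 4 (0.0293 to 0.0459). In the annotation Timp3 overlaps Syn3 on the opposite strand, and Timp2 overlaps Cep295nl on the same strand. Of the other tested matrix genes Col4a1 overlaps Col4a2 and Fbn1 overlaps Gm9913, each on the opposite strand. Whether the counting used strand is not stated, so some reads of Timp3 may belong to Syn3. Likewise some reads of Col4a1 may belong to Col4a2, and some of Fbn1 to Gm9913. Strand could not separate Timp2 from Cep295nl, so some reads of Timp2 may belong to Cep295nl.

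Of the remaining genes, Vim encodes the intermediate filament of mesenchymal cells. It had 633 and 178 CPM untreated, 203, 162, 324 and 197 CPM with DMSO, and 194, 270.4, 93.4 and 199 CPM with benzamil, so the treated libraries lay on both sides of untreated library 2 and no difference passed. Megf6, an epidermal growth factor-repeat gene tested only through the untreated libraries, had 80.8 and 44.5 CPM there, from 6 and 3 reads, against 0 to 7.36 with DMSO (-3.58 ± 0.87; adjusted p = 5.356e-03), a call lost without untreated library 1 (0.159). Cytl1, which encodes a cytokine-like protein, was higher in the DMSO libraries (45.9 to 106 CPM) than in the untreated ones (26.9 and 44.5), the one tested matrix gene with separate groups in that direction (29.5% of all tested genes had them), and did not pass (0.94 ± 0.74; adjusted p = 0.392). In the other direction 17 tested matrix genes had separate groups (18.6% of all tested genes did), but for Col5a1, Col6a3, Lox and Megf6 the filter fixed that separation, so the count is a description only.

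**Figure D2:**
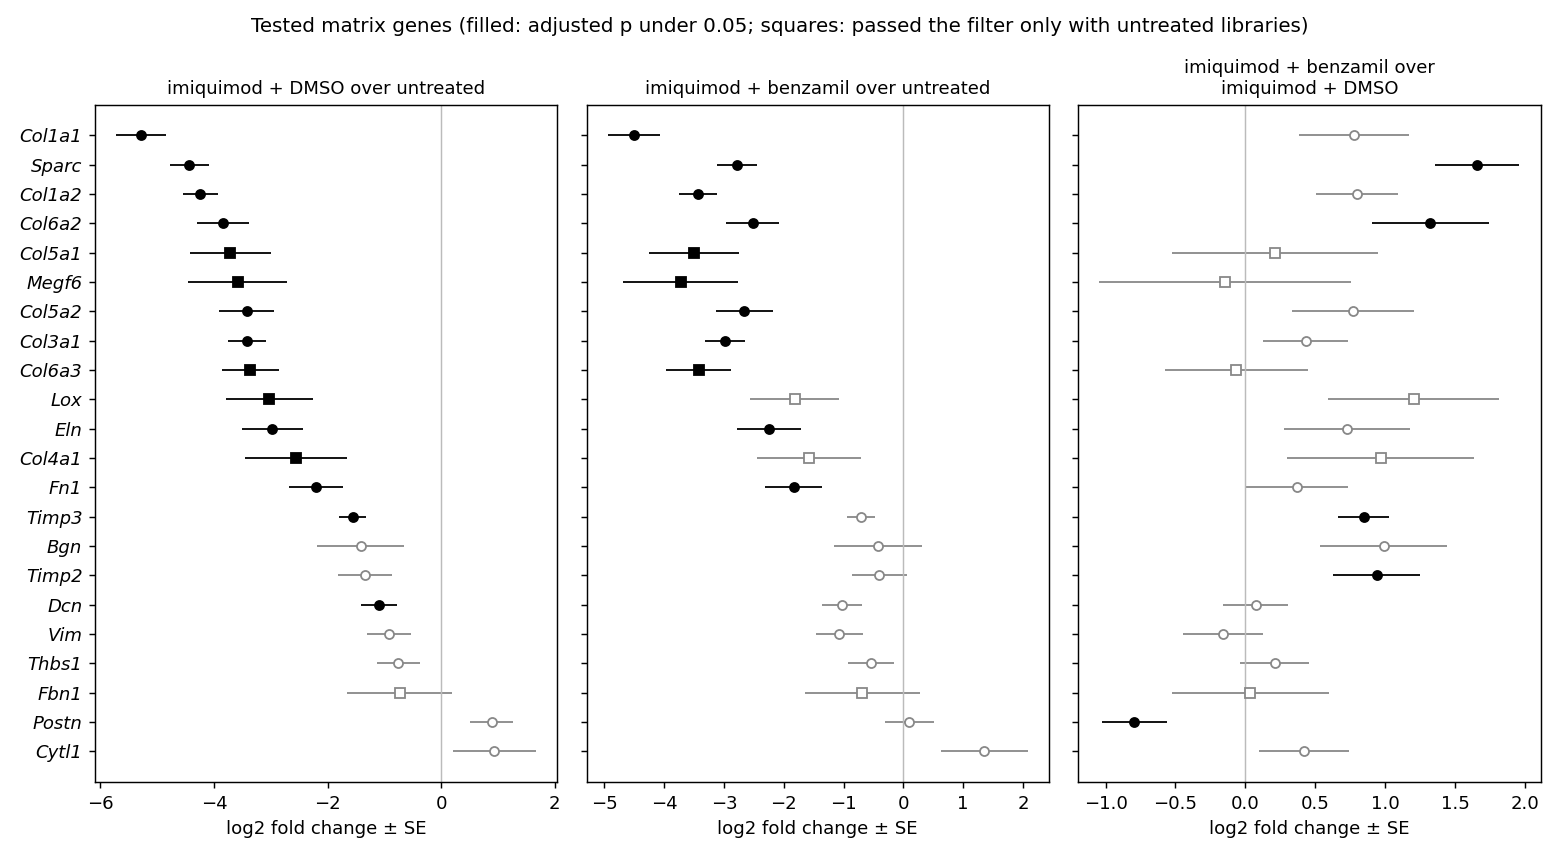
Log2 fold change with its standard error for the 22 tested matrix genes in the 3 comparisons; filled symbols have an adjusted p under 0.05 and squares mark the 6 genes that passed the filter only with the untreated libraries. Values run from -5.29 (Col1a1) to 0.94 (Cytl1) for DMSO over untreated and from -0.79 (Postn) to 1.66 (Sparc) for benzamil over DMSO; the 3 panels have different axes.

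The count against untreated skin depended on untreated library 1. Without it 28 matrix genes could be tested and 9 were called lower with DMSO, while over all genes the calls lower went from 443 of 5245 to 208 of 6349. The 9 were Col1a1, Col1a2, Col3a1, Col5a2, Col6a2, Col6a3, Eln, Sparc and Timp3. In the other tables of these samples, the authors' deposited table of untreated minus DMSO gave an adjusted p to 29 matrix genes and called 14 of them higher in untreated skin and 0 lower. The authors' calls over all genes were not counted, so these numbers are descriptions only.

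The second question of the design was what benzamil changed in imiquimod-treated skin. With benzamil, 4 of the 22 tested matrix genes rose by edgeR's quasi-likelihood test (9.91% of all tested genes did): Sparc, Col6a2, Timp3 and Timp2. Postn fell (12.1% of all tested genes did), and the other 17 did not pass. The median difference over the 22 was 0.58 on the log2 scale, beside -0.0055 over all tested genes, and 18 of the 22 were positive. Groups were separate for 4 genes that stood higher with benzamil (11.1% of all tested genes), namely Sparc, Col6a2, Timp3 and Bgn, and for 1 that stood lower, Postn (13.4%). The called share of the 22 was above that of all tested genes for higher and below it for lower. Each rests on few genes, so these counts are descriptions only.

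Sparc had the largest difference of the called genes. Every benzamil library (260.2 to 921 CPM) was above every DMSO library (124 to 213 CPM), and the change was 1.66 ± 0.30 (adjusted p = 3.527e-04), from 161 ± 39.7 to 511 ± 286 CPM (SD, n = 4 each). Without benzamil library 4, the highest, it was 1.27 (adjusted p = 0.0016). Timp3 rose by 0.85 ± 0.18 (adjusted p = 1.786e-03), from 205 ± 21.4 to 366 ± 16.0 CPM, with the benzamil libraries spread over only 341 to 374 CPM. Both stayed below the untreated libraries.

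Col6a2 rose by 1.32 ± 0.42 (adjusted p = 0.025), from 17.1 ± 4.50 to 41.2 ± 10.5 CPM, on 30 reads with DMSO and 36 with benzamil in all. Timp2 rose by 0.94 ± 0.31 (adjusted p = 0.032) with groups that overlapped by little, 76.8 CPM in benzamil library 2 against 77.7 in DMSO library 4. Postn fell by 0.79 ± 0.23 (adjusted p = 0.016), from 282 ± 83.6 to 169 ± 29.3 CPM, and its lowest DMSO library (199 CPM) was just above its highest benzamil library (193 CPM).

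Of these calls, those on Col6a2, Timp2 and Postn did not hold without some libraries. Col6a2 lost its call without DMSO library 1, benzamil library 1 or benzamil library 4 (adjusted p = 0.1298, 0.0749 and 0.0586), Timp2 without DMSO library 1 or 2 or benzamil library 1 or 4 (0.0934, 0.107, 0.0742 and 0.1508), and Postn without DMSO library 1 or benzamil library 2 (0.1049 and 0.0724). Timp2 was not called by DESeq2 (0.0695) or limma (0.0888), and with all libraries thinned to the shallowest Timp3 differed by 0.29 (0.446), Postn by -0.17 (0.747) and Timp2 by 0.90 (0.314). Scaling by total counts alone moved the median of all genes to -0.26 and the split over all genes from 520 higher and 635 lower to 248 and 1009, and 2 matrix genes, Sparc and Timp3, were then called higher.

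The fibrillar collagens had positive differences that did not pass. Col1a1 differed by 0.78 ± 0.39 (adjusted p = 0.160) and Col1a2 by 0.80 ± 0.29 (adjusted p = 0.051), while Col3a1 differed by 0.43 ± 0.31 (adjusted p = 0.328) and Col5a2 by 0.77 ± 0.44 (adjusted p = 0.213). In each of them benzamil library 3 lay within or below the DMSO range: for Col1a2 at 120 CPM inside 55.1 to 178. Col1a2 lay close to the threshold and passed without DMSO library 3 or 4, without benzamil library 3, or without either untreated library (adjusted p = 0.0164 to 0.0445). Bgn, at 21.2, 36.7, 20.01 and 55.6 CPM with benzamil against 16.6, 10.8, 18.4 and 16.7 with DMSO, had separate groups and an adjusted p of 0.122 (0.99 ± 0.46). Lox stood at 9.10 to 33.4 CPM against 2.70 to 13.9 (1.20 ± 0.61; adjusted p = 0.159).

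Dcn and Vim differed by 0.07 ± 0.23 and -0.16 ± 0.29 between the treated groups (adjusted p = 0.859 and 0.729). Each had its lowest level of all treated libraries in benzamil library 3, at 73.4 and 93.4 CPM. Eln differed by 0.72 ± 0.45 (adjusted p = 0.260), Fn1 by 0.37 ± 0.37 (adjusted p = 0.503) and Thbs1 by 0.21 ± 0.25 (adjusted p = 0.582). The authors' deposited table of benzamil minus DMSO gave an adjusted p to 25 matrix genes and called Sparc (1.583e-05) and Timp3 (8.009e-04) higher and Postn (0.0312) lower. Here too the authors' calls over all genes were not counted.

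Against untreated skin, the benzamil group had 11 of the 22 tested matrix genes lower (1.56% of all tested genes were) and 0 higher (2.44%) by edgeR. At an unadjusted p under 0.05, 15 were lower and 0 higher, beside 992 of all 5245 tested genes in both directions together. DESeq2 called 13 lower and 0 higher, beside 125 and 81 of 5244 genes in all. This comparison shares the untreated libraries with that of DMSO over untreated and the benzamil libraries with that of benzamil over DMSO, and 3 of the 11 had passed the filter only with the untreated libraries. Under scaling by total counts alone the split over all genes moved from 128 higher and 82 lower to 63 and 105, with 11 matrix genes lower as before.

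The 11 were the 5 fibrillar collagens, Col6a2, Col6a3, Eln, Sparc, Fn1 and Megf6. Eln overlapped with untreated skin, at 30.05 to 95.3 CPM against 67.3 and 371. Fn1 lost its call with the replicate block (adjusted p = 0.0531) and without benzamil library 2 or 3 (0.0502 and 0.0566). Megf6 lost its call without benzamil library 2 (0.0502). Col1a1 changed by -4.51 ± 0.43 (log2; adjusted p = 2.352e-07), Col1a2 by -3.44 ± 0.31 (adjusted p = 1.579e-07), Col3a1 by -2.99 ± 0.34 (adjusted p = 2.380e-06) and Sparc by -2.78 ± 0.33 (adjusted p = 5.080e-06). For these 4 genes no benzamil library reached an untreated one, and the highest benzamil level of Col1a1, 492 CPM, compared with 2788 CPM in untreated library 2. Timp3 (-0.71 ± 0.24, adjusted p = 0.089) and Dcn (-1.03 ± 0.33, adjusted p = 0.071) were separate from untreated as well but did not pass by edgeR. DESeq2 called both lower (Timp3 -0.78, adjusted p = 0.0374, and Dcn -1.11, adjusted p = 0.0491). After thinning to the shallowest library edgeR called Timp3 lower (-1.29, adjusted p = 0.0032). Timp2 (-0.40 ± 0.47) and Bgn (-0.43 ± 0.73) overlapped with untreated. Separate groups were seen for 14 tested matrix genes that stood lower (12.9% of all tested genes), among them the 4 whose separation the filter fixed, and for 0 that stood higher (19.5%). Without untreated library 1, 6 of 28 tested matrix genes were called lower, beside 36 of 6349 genes in all: Col1a1, Col1a2, Col3a1, Col6a3, Eln and Sparc. Without that library Col1a1 changed by -3.30, Col3a1 by -2.27 and Sparc by -2.04, and without untreated library 2 Eln differed by -0.50 (adjusted p = 0.7637).

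Matrix genes took a larger share of all reads in untreated skin. The 34 genes held 2.26% and 1.02% of the reads of the untreated libraries, 0.177% to 0.258% with DMSO and 0.139% to 0.366% with benzamil. Col1a1, Col1a2, Col3a1 and Sparc, grouped after their values were known, made up 81.5% and 73.3% of those reads in untreated skin, 19.3% to 33.2% with DMSO and 30.8% to 48.9% with benzamil. The other 30 genes held 0.418% and 0.274% untreated, 0.124% to 0.172% with DMSO and 0.0965% to 0.187% with benzamil.

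**Figure D3:**
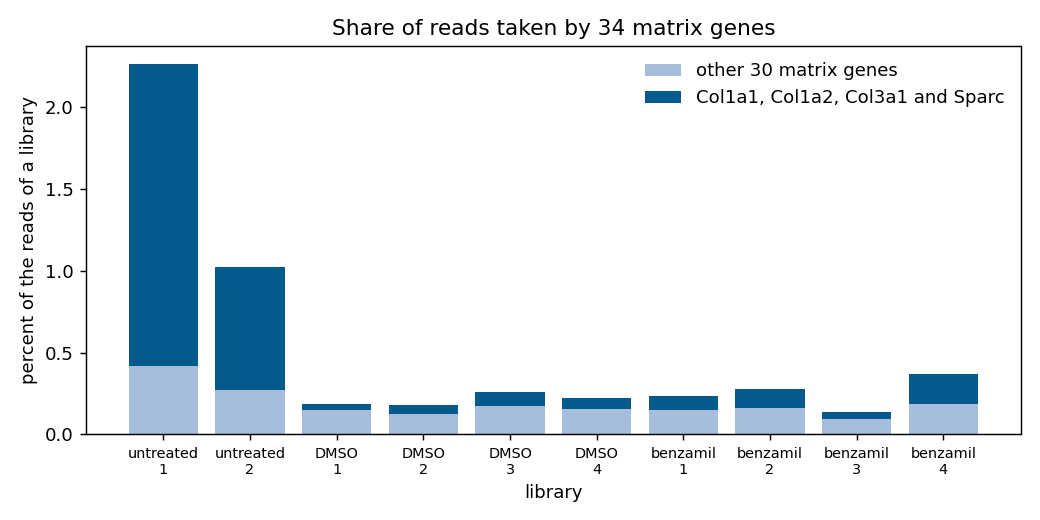
Percent of each library's reads taken by 34 matrix genes, with Col1a1, Col1a2, Col3a1 and Sparc in dark and the other 30 genes in light colour, stacked from 0. The untreated libraries reach 2.26% and 1.02% and no treated library exceeds 0.366%, and the dark part is most of the bar in the untreated libraries only.

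Ratios within a library do not depend on its scaling. They compare the same pair of genes across libraries, not the levels of the pair, were chosen after the values were known, and were not tested. Per read of Dcn there were 24.96 and 8.55 reads of Col1a1 in untreated skin, 0.483 to 1.57 with DMSO and 0.914 to 2.48 with benzamil. Per read of Vim the values were 14.9 and 15.7 untreated, 0.374, 0.767, 0.875 and 0.859 with DMSO, and 1.00, 1.07, 1.29 and 2.48 with benzamil, so the 3 groups were separate. Sparc per read of Dcn was also separate in the 3 groups, at 12.4 and 6.73 untreated, 0.874, 0.807, 1.18 and 1.00 with DMSO, and 1.91, 2.45, 3.55 and 4.64 with benzamil. Col3a1 per read of Dcn, at 5.32 and 2.95 untreated, overlapped between the treated groups (0.510 to 1.11 and 0.671 to 1.52). Benzamil library 3, the lowest in CPM for 13 of the 22 tested matrix genes, was not the lowest of its group in any of these 4 ratios, but it was in Col1a1 per read of Postn, at 0.621 against 1.12, 2.29 and 2.70.

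**Figure D4:**
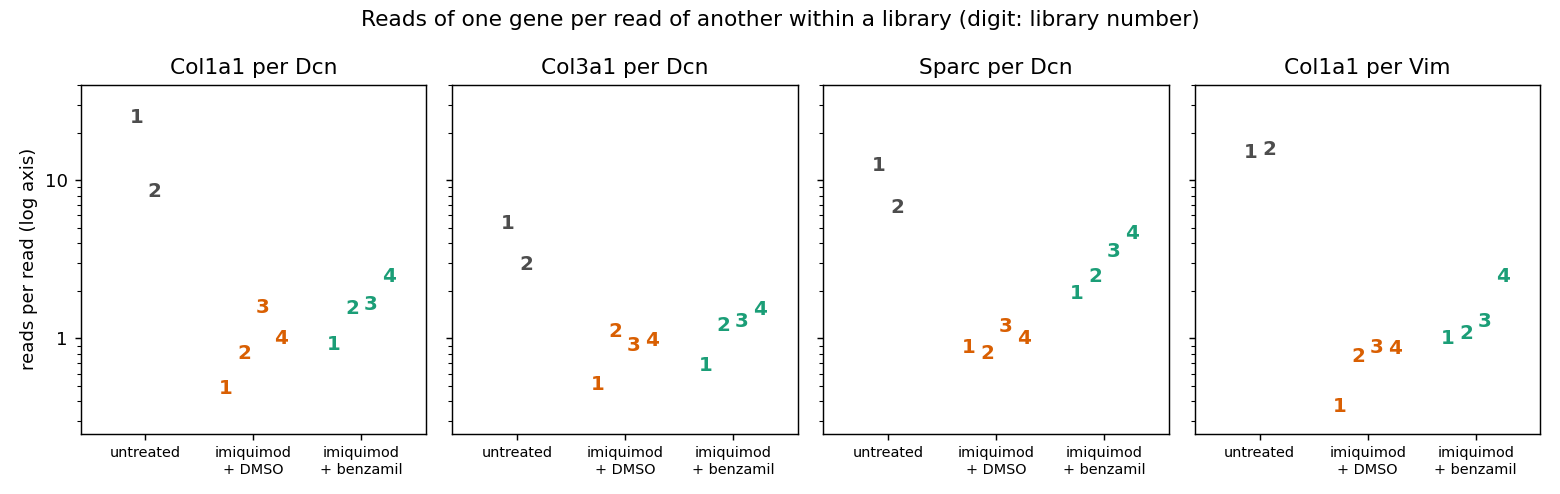
Reads of a gene per read of another within each library, on a shared log axis, for Col1a1 per Dcn, Col3a1 per Dcn, Sparc per Dcn and Col1a1 per Vim; digits are library numbers. Both untreated libraries lie above all treated ones in every panel, and the treated groups are separate for Sparc per Dcn and Col1a1 per Vim.

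The chains of type I collagen were also set against each other. Col1a1 per read of Col1a2 was 3.91 in untreated library 1 and 1.41 in untreated library 2, 0.953 to 1.79 with DMSO and 0.970 to 1.94 with benzamil. Untreated library 1 thus stood apart in Col1a1 more than in Col1a2.

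Levels of the matrix genes moved together between libraries of a group. Benzamil library 4 was the highest of its group for 14 of the 22 tested matrix genes (28.8% of all tested genes), and benzamil library 3 the lowest for 13 (28.9%). With DMSO, libraries 3 and 4 were highest for 11 and 8, and libraries 1 and 2 lowest for 9 and 11, where each library has 22.6% to 26.8% of all tested genes. Untreated library 1 exceeded untreated library 2 for 18 of the 22 (49.4% of all tested genes with unequal levels). The share of reads on ribosomal RNA genes was highest in benzamil library 3, at 45.5%, against 30.8% to 36.4% in the other benzamil libraries and 22.0% to 28.7% with DMSO, and its part in the matrix levels was not tested.

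Of 23 listed genes for the enzymes and carriers that build collagen 7 were tested. With DMSO over untreated 2 rose (9.93% of all tested genes did), 1 fell (8.45%) and 4 were not called. P4hb, the disulfide isomerase subunit of prolyl hydroxylase, rose by 2.27 ± 0.41 (adjusted p = 4.689e-04), from 77.5 ± 4.67 to 373 ± 26.5 CPM. Ppib, a prolyl isomerase of collagen folding, rose from 0 reads in both untreated libraries to 59.7 ± 11.3 CPM (adjusted p = 8.842e-03). Pcolce2, an enhancer of procollagen trimming, fell by 2.20 ± 0.69 (adjusted p = 0.027). Its DMSO libraries (8.10 to 22.1 CPM) lay under the filter's limit and its untreated ones (67.3 and 89.0 CPM) above it. The filter may thus have favoured that fall. Which genes outside the matrix list passed only with the untreated libraries was not examined. With benzamil over DMSO 0 rose (9.91% of all tested genes did) and 3 fell (12.1%), P4hb changing by -1.13 ± 0.22 (adjusted p = 6.466e-04), Ppib by -1.60 ± 0.38 (adjusted p = 4.195e-03) and Sec24d, a coat protein for procollagen export, by -1.17 ± 0.39 (adjusted p = 0.030). P4hb and Ppib also serve the folding of other secreted proteins.

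Of 22 listed symbols of transforming growth factor beta signalling, a pathway that induces collagen genes, 5 were tested. By edgeR 0 of the 5 were called in each of the 3 comparisons. Over all tested genes the shares higher and lower were 9.91% and 12.1% for benzamil over DMSO. They were 9.93% and 8.45% for DMSO over untreated, and 2.44% and 1.56% for benzamil over untreated. At such shares 0 of 5 says little about the pathway. Before adjustment p was under 0.05 for 0 between the treated groups and for 1, Tgfbi, in each comparison with untreated skin. Over all 5245 tested genes it was under 0.05 for 1851 (benzamil over DMSO), 1746 (DMSO over untreated) and 992 (benzamil over untreated). DESeq2 called 0 in each as well, and limma called 0 between the treated groups and 1, Tgfb1, higher with DMSO than in untreated skin. Tgfbi, a secreted target of the pathway, stood at 310 and 222 CPM untreated, 155 ± 23.9 CPM with DMSO and 147 ± 71.2 CPM with benzamil. Of 18 listed genes, which are matrix proteases with the inhibitor Timp1 and the receptor Plaur, 7 were tested. Mmp14, a membrane-bound collagenase, fell by 1.86 ± 0.43 with DMSO (adjusted p = 3.408e-03), from 193 ± 83.1 to 49.6 ± 13.9 CPM, and the lysosomal protease Ctsd rose by 1.00 ± 0.33 (adjusted p = 0.034). Between the treated groups edgeR called 0 of the 7, with 0 at an unadjusted p under 0.05, and DESeq2 and limma called 0. Over all tested genes edgeR called 9.91% higher and 12.1% lower there.

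Of 17 listed receptors for matrix 11 were tested, and with DMSO over untreated Cd44, a hyaluronan receptor, rose by 2.09 ± 0.42 (adjusted p = 1.208e-03) and Sdc1 by 1.07 ± 0.33 (adjusted p = 0.026), while Itgb4 fell by 1.06 ± 0.33 (adjusted p = 0.028). With benzamil over DMSO 2 rose and 3 fell, where 9.91% and 12.1% of all tested genes did, Cd44 changing by -1.51 ± 0.24 (adjusted p = 7.992e-05) and Ddr2, a receptor for fibrillar collagen, by 1.13 ± 0.36 (adjusted p = 0.027). Of 18 laminin and other basement membrane genes 8 were tested. Col7a1, whose product anchors epidermis to dermis, fell by 2.92 ± 0.70 with DMSO over untreated (adjusted p = 5.253e-03) and rose by 1.99 ± 0.48 with benzamil over DMSO (adjusted p = 4.609e-03), from 9.10 ± 5.10 to 42.4 ± 15.1 CPM.

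Markers of other cells moved between the same groups. Of 8 tested fibroblast markers 5 fell with DMSO over untreated (8.45% of all tested genes did) and 2 rose with benzamil over DMSO (9.91%). In both counts was Dpt, a dermal matrix protein that helps fibrils assemble, at 91.6 ± 3.70 CPM untreated (n = 2), 15.7 ± 6.80 with DMSO and 44.8 ± 15.1 with benzamil (n = 4 each). All 12 skeletal muscle markers were tested, and 9 fell with DMSO and 7 rose with benzamil over DMSO, beside the same shares of all tested genes. Their summed level was 3674 and 3396 CPM untreated, 355 to 1398 with DMSO and 882 to 1911 with benzamil. The 4 neutrophil markers in both tables summed to 215 and 44.5 CPM untreated, 11029 to 18324 with DMSO and 213 to 4249 with benzamil, with Cxcr2 and Retnlg at 0 in untreated skin and Retnlg at 0 with benzamil. With DMSO nearly all of that sum was S100a8 and S100a9, at means of 7573 and 7730 CPM, while Cxcr2 had 53.2 CPM. The sum thus follows S100a8 and S100a9 and is not a measure of neutrophil number. The 3 adipocyte markers in both tables summed to 350 and 148, 85.2 to 164, and 103 to 217 CPM, and the 4 Schwann and nerve markers to 310 and 252, 61.1 to 103, and 50.1 to 112 CPM. The 5 cartilage markers summed to 229 and 208, 84.2 to 105, and 93.4 to 124 CPM, and the 2 smooth muscle and pericyte markers to 67.3 and 104, 5.19 to 25.8, and 0 to 33.4 CPM. The 6 macrophage markers summed to 13.5 and 74.2, 62.5 to 97.2, and 26.7 to 151 CPM, with Cd68, Adgre1, C1qa and C1qc at 0 in untreated skin. The part of these cell types in the matrix differences was not tested.

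The other 12 matrix genes in both tables had too few reads for a test. Col12a1, a fibril-associated collagen, had 15, 10, 8 and 12 reads with DMSO, 3 in every benzamil library, and 0 and 3 untreated. Serpinh1, the collagen chaperone HSP47, had 11, 4, 4 and 3 reads with DMSO, 1, 1, 0 and 0 with benzamil, and 0 and 3 untreated. Mmp2, a gelatinase, had 18, 6, 2 and 7, then 13, 7, 3 and 2, then 2 and 1 reads. Lum (lumican) had 14, 3, 7 and 5, then 6, 5, 3 and 4, then 2 and 0 reads. Fbln1 (fibulin) had 6, 3, 6 and 2, then 2, 4, 5 and 5, then 0 and 0 reads. At these numbers no difference was detectable in most of them. In a fit with no filter on low counts, edgeR called Col14a1, a fibril-associated collagen with 2, 4, 2 and 0 reads with DMSO and 5 and 1 untreated, lower with DMSO than in untreated skin (-2.96; adjusted p = 0.045).

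Col16a1, Ogn, Fmod, Fbln2 and Tnxb had 0 to 7 reads in each library. In the benzamil table alone, the microfibril gene Mfap5 had 0, 0, 0 and 2 reads with DMSO and 1, 3, 3 and 1 with benzamil, and the procollagen enhancer Pcolce had 4, 1, 2 and 0 against 0, 4, 0 and 0. No source used here says whether reads of 1 molecular identifier were collapsed, and the worth of a read and the limits drawn from 3 reads cover counting error only.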

How the data were processed

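RNA of 10 mouse skin libraries was made into 3' libraries with unique molecular identifiers from 500 ng of RNA, per the labels' protocols. STAR, featureCounts, DESeq2 and mm10 are named in the submitters' processing notes, without versions. The authors deposited 2 tables of variance-stabilised log2 values, each normalized on its own, and 2 DESeq2 tables with a mean signal, a log2 fold change, a Wald score, a p-value and an adjusted p-value. A deposited count table holds 61533 identifiers, all human, and was used for no comparison.

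The log2 values were turned back into reads by inverting the transform. Of the values of each library, 100% lay within 0.001 reads of a whole number, and 39116 of 39116 DMSO values gave equal reads in both tables. The 9779 shared genes entered 1 fit of edgeR 4.0.16 (R 4.3.3), quasi-likelihood, TMM scaling, filterByExpr (count minimum 10, total 15), a mean per group, and Benjamini-Hochberg adjustment over the 5245 genes tested. A gene was called at an adjusted p under 0.05. Standard errors are approximate, from the fold change and its F statistic. The common biological coefficient of variation was 0.195, and replicate libraries differed beyond sampling noise (chi-square per degree of freedom 1.93 to 6.87). The fit was tested on simulated data.

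Alternatives were other scalings, no filter, thinning to the shallowest library, leaving out ribosomal RNA genes or each library, a replicate block, DESeq2 1.42.0, limma 3.58.1 on the log2 values, and each table on its own. Every matrix gene in the files could be named, and of other lists at most the 3 called genes with the smallest adjusted p in a comparison or, with none called, the gene with the highest level. The matrix genes and all lists were chosen with earlier results of these data known. Gene positions are from GENCODE M21 on mm10 and promoters from RefSeq.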

Additional observations from a re-analysis of the deposited data

Results flagged for a closer look

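In 44 groups of 4 libraries (22 tested matrix genes in each of the 2 treated groups), 4 held a library far from the other 3 by Dixon's test (the gap to the nearest library over the whole range). Chance flags about 1 in 20 groups, so this number is near what chance gives. Col3a1 was lowest in DMSO library 1, at 80.0 CPM, with the others at 162 to 170.2. Cytl1 was highest in the same library, at 106 CPM, with the others at 45.9 to 51.5. Fn1 was highest in DMSO library 3, at 73.6 CPM against 29.7 to 33.3. Timp3 was lowest in benzamil library 4, at 341 CPM against 373 to 374, a gap that is small beside the difference of Timp3 between the treated groups.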

How the results depend on the processing

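Depth limits these results: thinned to the shallowest library, 1509 genes could be tested. Of all 1509, 131 were called higher and 133 lower for benzamil over DMSO. The calls were 194 and 222 for DMSO over untreated, and 76 and 60 for benzamil over untreated. Only 12 matrix genes could be tested after thinning, and the counts below are of matrix genes. For benzamil over DMSO (4 higher, 1 lower), 2 were higher by total counts alone, 1 higher and 0 lower after thinning, and leaving out each library gave 2 to 6 higher and 0 to 1 lower. For DMSO over untreated (0 higher, 15 lower), 1 was higher with no filter and 2 by limma, 9 were lower after thinning and 9 to 15 when each library was left out. For benzamil over untreated (11 lower), 7 were lower after thinning and 6 to 11 when each library was left out. The cause was not tested beyond fewer genes or libraries entering those fits. Calls over all genes also changed in those fits, so the counts of matrix genes are descriptions only. limma could not be fitted for benzamil over untreated, since the tables were normalized separately.

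Signs turned only for differences that were not called. For benzamil over DMSO they turned by total counts alone in Col5a1 (-0.039), Dcn (-0.18), Fbn1 (-0.21) and Thbs1 (-0.060), after thinning in Col5a2 (-0.16), Col6a3 (0.22), Thbs1 (-0.26) and Vim (0.075), by limma in Dcn (-0.059) and Fbn1 (-0.22), and in Fbn1 by DESeq2 size factors (-0.019) and DESeq2 (-0.016). For DMSO over untreated Fbn1 turned by limma (0.29), and for benzamil over untreated Postn by total counts (-0.082). Leaving out each library gave, for benzamil over DMSO, Col5a1 -0.23 to 0.92, Col6a3 -0.30 to 0.14, Dcn -0.069 to 0.27, Fbn1 -0.51 to 0.32, Vim -0.40 to 0.049 and Megf6 -0.44 to 0.47. For DMSO over untreated it gave Fbn1 -1.57 to 6.06, the latter with the untreated group at 0 reads, and Vim -1.43 to 0.38. For benzamil over untreated it gave Col4a1 -2.24 to 0.40, Bgn -0.82 to 0.31, Fbn1 -1.54 to 6.10, Postn -0.20 to 0.76, Timp2 -0.73 to 0.071 and Vim -1.60 to 0.23.

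Library numbers did not pair the libraries: same-numbered deviations correlated at 0.000688 to 0.0686 between the treated groups, -0.118 and -0.0135 between DMSO and untreated, and -0.11 and 0.116 between benzamil and untreated. With the replicate block the matrix genes called were 5 higher and 1 lower, 0 higher and 16 lower, and 0 higher and 10 lower. Over all 5245 tested genes these calls were 465 and 594, 545 and 418, and 84 and 63. Col6a3 turned to 0.024 in the first of these comparisons, benzamil over DMSO. There, 2 of 4 libraries correlated best with their own number.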
